A study of Mus musculus with 9 samples.

Results

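The mouse embryo that kept miR-19 but lacked the miR-17, miR-18 and miR-92 members of the miR-17~92 cluster was compared with the wild-type embryo across all mature miRNAs. The comparison takes 2 of the 9 small RNA libraries, chosen by their genotype labels: the miR-19-only library, whose genotype label reads miR-17,18,92 deleted, and the wild-type library, which carries the full cluster. The table lists 986 miRNA rows once near-equal duplicates of an accession are merged, and 319 rows outside the cluster averaged 100 nRPM or more and were compared. Each genotype is 1 library, so a ratio compares 2 libraries and has no replicate check.

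All libraries came from embryos at embryonic day 9.5, labelled female, from timed matings of miR-17~92 mutant animals, and the tissue label is whole embryo, although what was profiled is the embryo left after heart and tail bud were cut away. The other 6 genotypes serve as the measure of spread: the whole-cluster knockout (full deletion), the combined loss of miR-17 and miR-18 (ΔmiR-17,18), and the loss of miR-92 (ΔmiR-92), miR-19 (ΔmiR-19), miR-18 (ΔmiR-18) or miR-17 (ΔmiR-17). Strain, litter and number of embryos per library are not given in the sources used here. In each of these 6 some part of the cluster is missing, so none is a second wild type or a second miR-19-only embryo. Whether a mutant allele was carried on both chromosomes is not given in the labels.

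The miR-17~92 cluster is a polycistron: a long host transcript, Mir17hg, is cut into several hairpins, and each hairpin gives a 5p and a 3p arm, of which usually 1 is loaded into Argonaute as the guide. A guide finds its target messenger RNAs mainly through its seed, bases 2 to 8. The cluster is known for promoting proliferation and survival, for its amplification in lymphoma, where miR-19 is the member best known as oncogenic, and for its need in heart, lung and skeletal development. In the mouse it has paralogs, the X-linked miR-106a~miR-363 cluster and the miR-106b~miR-25 cluster, which carry guides with the same seeds.

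The 6 hairpins of the cluster fall into 4 seed families, shown here because the deletions were made by family. In the GRCm38 annotation Mir17hg lies at chr14:115042879-115046727 on the plus strand, and all 6 hairpins overlap its exons. The deleted hairpins are Mir17 (chr14:115043671-115043754), Mir18 (chr14:115043851-115043946), Mir20a (chr14:115044157-115044263) and Mir92-1 (chr14:115044427-115044506). The hairpins kept in the miR-19-only embryo are Mir19a (chr14:115044000-115044081) and Mir19b-1 (chr14:115044305-115044391). The guide sequences, from RefSeq (GRCm38.p6), run 5′ to 3′ with the seed in capitals.
miR-17-5p: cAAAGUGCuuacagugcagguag
miR-20a-5p: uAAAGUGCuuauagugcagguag
miR-18a-5p: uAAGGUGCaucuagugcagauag
miR-19a-3p: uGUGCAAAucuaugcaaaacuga
miR-19b-3p: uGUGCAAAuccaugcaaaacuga
miR-92a-3p: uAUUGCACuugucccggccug
The miR-19 guides share their seed and differ by the substitution U11C, counted from 1 at the 5′ end with miR-19a-3p as the reference. miR-19b-3p and miR-92a-3p are each encoded at 2 loci, the second in the miR-106a~miR-363 cluster, so their reads cannot be assigned to a locus by sequence.

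Levels are given in normalised RPM (nRPM): the deposited values, which are reads divided by 1 factor per library, times 1 constant for all libraries. The wild-type library held 7070844 miRNA reads and the miR-19-only library 12342973, and 1 read was worth 0.157 nRPM and 0.0693 nRPM in them. The other 6 libraries held 6564471 to 18481380 reads. Arms of the cluster took 26.96% of the wild-type reads and 8.31% of the miR-19-only reads. Ratios carry exact conditional 95% intervals that treat each read as an independent count and leave out differences between embryos. PCR copies are not independent molecules, so the intervals can be too narrow even for counting error. Log2 ratios have a pseudocount of 1 nRPM.

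The deleted arms of the cluster were nearly absent from the miR-19-only library, which checks the label. miR-17-5p, the best known guide of its family, stood at 17330 nRPM in wild type (110648 reads) and 8.87 nRPM in miR-19-only (128 reads). That was 0.0512% of wild type (0.0427% to 0.0608%). Across the other genotypes the level of miR-17-5p was 10.1 nRPM in the full deletion, 180.0 in ΔmiR-17,18, 53720 in ΔmiR-92, 21450 in ΔmiR-19, 36341 in ΔmiR-18 and 10.1 in ΔmiR-17. The miR-19-only value was the lowest of the 8 and close to those of ΔmiR-17 and the full deletion. miR-20a-5p, which shares the seed of miR-17-5p, went from 31072 to 8.66 nRPM, 0.0279% of wild type.

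miR-18a-5p, the guide of the miR-18 family, stood at 10099 nRPM in wild type and 4.30 nRPM in miR-19-only (62 reads), 0.0425% of wild type. The passenger arms, which are the less used strands, followed: miR-17-3p stood at 0.0603% of wild type, miR-18a-3p at 0.136% and miR-92a-1-5p, the arm that belongs to the deleted Mir92-1 hairpin alone, at 0.0865%. miR-20a-3p, with 1453 wild-type reads, had 0 in miR-19-only, where 3 reads would equal 0.0913% of wild type. All 8 deleted arms thus stood under 1% of wild type. miR-92a-3p was listed in a pair of rows that differ in level. Its higher row, assigned to the cluster after its values had been seen, went from 199542 to 545.8 nRPM, 0.274% of wild type, against 682.5 nRPM in the full deletion and 871.5 in ΔmiR-92. Because of that choice, its level is no separate check of the label. Its lower row went from 22952 to 8491 nRPM, with the other 6 genotypes at 9800 to 19242. It was therefore the lowest of the 8 in miR-19-only and the highest in wild type.

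**Figure D1:**
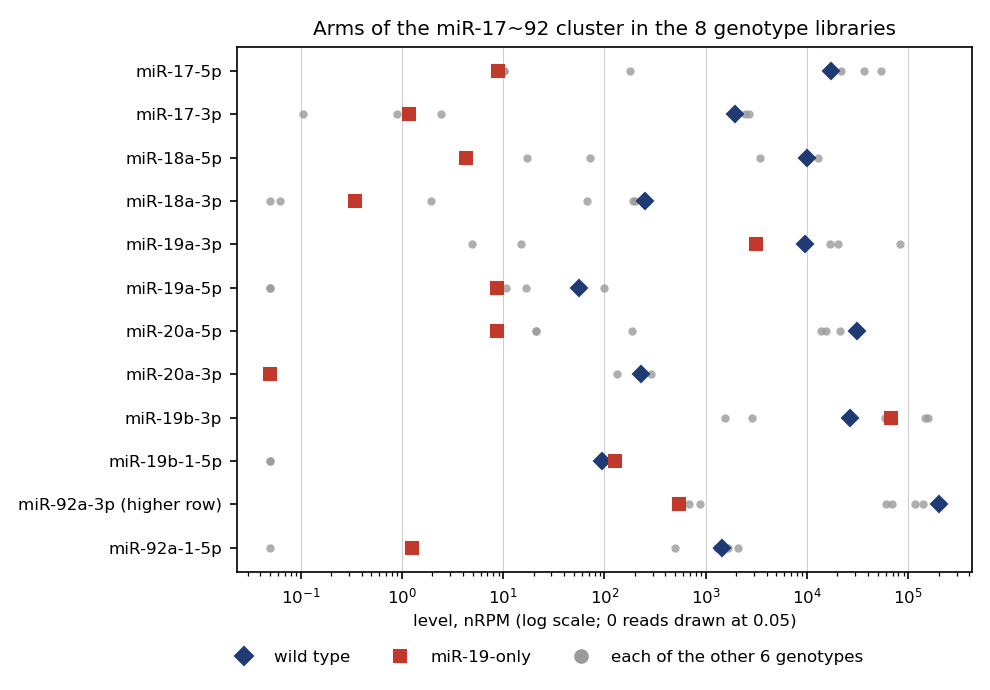
Level of each of the 12 arms of the miR-17~92 cluster (horizontal log axis, nRPM) in wild type (blue diamond), miR-19-only (red square) and each of the other 6 genotypes (grey circles); values of 0 reads are drawn at 0.05. The 8 deleted arms of miR-19-only lie under 1% of wild type, miR-19b-3p lies above wild type at 67216 nRPM, and miR-19a-3p lies below it at 3157 nRPM.

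The kept miR-19 arms did not keep their wild-type balance. Summed over its 4 arms, miR-19 stood at 36667 nRPM in wild type and 70509 in miR-19-only, a ratio of 1.92 (1.91 to 1.93). The ratio was 2.49 when libraries were scaled by their total miRNA reads. The gain lay in miR-19b-3p, which stood at 26894 nRPM in wild type and 67216 in miR-19-only, 2.50 times wild type (2.49 to 2.51). In the other genotypes that keep miR-19, miR-19b-3p stood at 147990 nRPM in ΔmiR-17,18, 59391 in ΔmiR-92, 155570 in ΔmiR-18 and 25168 in ΔmiR-17. The miR-19-only level was thus inside the range of the other miR-19-keeping mutants, of which 1 lay near wild type and 3 lay above it. In the libraries that lack miR-19, 1541 nRPM (ΔmiR-19) and 2852 nRPM (full deletion) of miR-19b-3p remained, in the presence of its second locus.

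miR-19a-3p went the other way. It stood at 9621 nRPM in wild type and 3157 in miR-19-only, 0.328 times wild type (0.324 to 0.332). Its levels in the other miR-19-keeping mutants were 16804 nRPM in ΔmiR-17,18, 20142 in ΔmiR-92, 83046 in ΔmiR-18 and 3221 in ΔmiR-17. Of the genotypes that keep miR-19, miR-19-only and ΔmiR-17 thus had the lowest miR-19a-3p. The ratio of miR-19a-3p to miR-19b-3p was 0.358 in wild type and 0.0470 in miR-19-only. It was 0.114 in ΔmiR-17,18, 0.339 in ΔmiR-92, 0.534 in ΔmiR-18 and 0.128 in ΔmiR-17. The 3 libraries without miR-17 had the lowest ratios among those that keep miR-19, with miR-19-only the lowest of them. This grouping was noticed after the values were seen, and the libraries differ in other deletions too.

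The passenger arms of the kept hairpins moved with their guides in direction but not in size. miR-19a-5p stood at 56.4 nRPM in wild type and 8.66 in miR-19-only, and at 10.65 in ΔmiR-17,18, 57.8 in ΔmiR-92, 99.7 in ΔmiR-18 and 16.97 in ΔmiR-17. In nRPM both arms of miR-19a were lowest in miR-19-only among the genotypes that keep miR-19, but by total miRNA reads another of these libraries was lower for each arm. miR-19b-1-5p, the arm that belongs to the cluster copy alone, stood at 95.4 nRPM in wild type and 127.3 in miR-19-only, a ratio of 1.33 (1.22 to 1.46). It stood between 95.6 and 124.4 nRPM in the other 4 genotypes that keep miR-19 and had 0 reads in ΔmiR-19 and the full deletion. The guide of this hairpin thus differed more between the libraries than its passenger did.

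The paralog clusters, which were not targeted, differed little in sum between the libraries. The 6 arms of miR-106b~miR-25 stood at 95176 nRPM in wild type and 98323 in miR-19-only, a ratio of 1.03, and at 84186 to 137218 nRPM in the other 6 genotypes. The 10 arms of miR-106a~miR-363 stood at 21429 and 22886 nRPM, a ratio of 1.07, against 17475 to 42001 in the other 6. Both miR-19-only sums lay inside the range of the other genotypes. Scaled by total miRNA reads, the ratios were 1.34 and 1.38.

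Single paralog guides moved apart from these sums. The following share the deleted miR-17 seed and differ from miR-17-5p outside it, and their sequences are shown so that they can be set against it.
miR-106a-5p: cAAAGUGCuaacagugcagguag
miR-20b-5p: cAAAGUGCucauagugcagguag
miR-93-5p: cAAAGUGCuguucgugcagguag
miR-106b-5p: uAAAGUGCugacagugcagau
miR-106a-5p, which differs from miR-17-5p by the substitution U10A alone, stood at 2612 nRPM in wild type and 5408 in miR-19-only, and at 3288 to 9420 in the other 6 genotypes. Wild type was the lowest of the 8, so the log2 ratio of 1.05 comes with a wild-type library that stood apart. miR-106b-5p stood at 16824 and 22567 nRPM, miR-20b-5p at 5979 and 7136, and miR-93-5p, the most abundant of them, at 33347 and 36702. In nRPM all 3 lay within the range of the other genotypes in both libraries, but by total miRNA reads wild type was below the other 6 for miR-106b-5p. The passenger arms miR-106a-3p and miR-19b-2-5p were over 2-fold higher too (12.4 against 32.5 nRPM and 7.67 against 18.3 nRPM), at low levels.

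For other paralog guides the miR-19-only value was the smaller one in nRPM. miR-25-3p, which shares the miR-92 seed, stood at 42560 nRPM in wild type and 36733 in miR-19-only, and miR-363-3p at 4709 and 4438, but by total miRNA reads both turned the other way, with ratios of 1.12 and 1.22. miR-18b-5p, the paralog of miR-18a, stood at 6869 and 4414 nRPM, a ratio of 0.643, with the other 6 genotypes spread from 1096 to 11429. None of these lay outside the range of the other genotypes in either library.

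Counted over all loci, the guide pool with each seed therefore differed as follows. Guides with the miR-17 seed (6 rows) summed to 107165 nRPM in wild type and 71831 in miR-19-only, a ratio of 0.670, although the cluster's own members were nearly absent. The 4 rows outside the cluster gave 58762 and 71813 nRPM of these sums, a ratio of 1.22. Guides with the miR-92 seed (7 rows) stood at 0.201 of wild type and guides with the miR-18 seed (2 rows) at 0.260, while the miR-19 seed stood at 1.93. Scaled by total miRNA reads these ratios were 0.868 for miR-17, 0.261 for miR-92, 0.337 for miR-18 and 2.50 for miR-19. The order of the 4 seeds was the same on both scales. The miR-17 pool was thus the least reduced of the 3 deleted seeds, and abundant paralogs such as miR-93-5p and miR-106b-5p held nearly all of it.

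Outside the cluster, 24 of 319 rows were at least 2-fold higher in miR-19-only than in wild type and 25 were at least 2-fold lower. That is 7.52% and 7.84%, and 15.4% in either direction. The median log2 ratio was 0.02, with quartiles at -0.38 and 0.50. Scaling by total miRNA reads shifted the median of the 319 rows up by 0.37 and turned the split into 56 higher and 13 lower. Counting rows with near-identical reads once left 306 rows, of which 21 were higher and 24 lower. The other mutants differed from wild type by 2-fold in 6.90% (ΔmiR-17), 14.7% (ΔmiR-18), 9.72% (ΔmiR-19), 14.1% (ΔmiR-92), 24.1% (ΔmiR-17,18) and 16.6% (full deletion) of the same rows. The share in miR-19-only was inside that range. Set against each of the other 6 mutants, miR-19-only differed in 9.72% to 16.3% of rows.

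**Figure D2:**
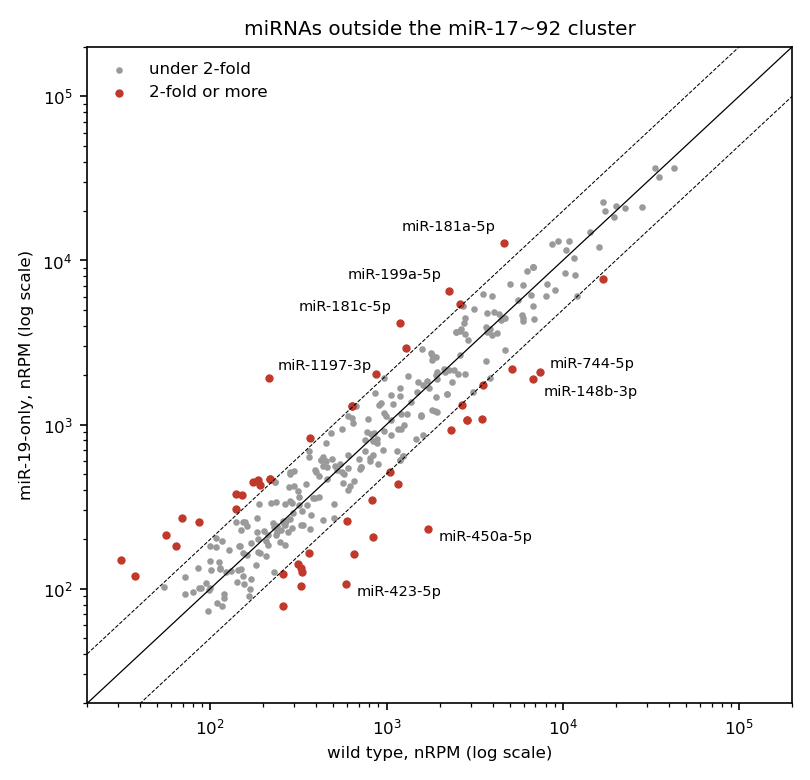
Level of the 319 miRNA rows outside the cluster in wild type (horizontal) and miR-19-only (vertical), both in nRPM on log axes; the solid line is equality and the dashed lines are 2-fold, and red points are the 49 rows at or past 2-fold. Most rows lie between the dashed lines, and miR-1197-3p lies farthest above them.

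A test across all rows was possible only by borrowing the spread of the 6 other genotypes. In limma's trend fit with wild type, miR-19-only and the 6 others as groups (5 residual degrees of freedom), 0 of 538 rows outside the cluster averaging 10 nRPM or more passed a Benjamini-Hochberg adjusted p of 0.05, which is 0% called, and 29 had an unadjusted p under 0.05. The smallest adjusted p was 0.554, and the 49 rows past 2-fold had adjusted p between 0.554 and 0.951. On the recovered reads, edgeR's quasi-likelihood test called 0 (27 unadjusted) and DESeq2's Wald test 3 (40 unadjusted). The median standard error of a log2 difference in the limma fit was 0.59, so a 2-fold difference was commonly under 2 standard errors. Differences are therefore given by size and by their place among the 8 libraries.

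Of the 49 rows past 2-fold, 16 had miR-19-only outside the range of the other 6 genotypes and wild type inside it. In 15 the reverse held: wild type was outside the range and miR-19-only inside it. Both libraries lay outside in 7 and both inside in 11. Over all 319 rows the same places held 57 (17.9%), 60 (18.8%), 20 (6.27%) and the remaining 57.1%. A difference from wild type was thus about as often a wild-type library apart from the mutants as a miR-19-only library apart from the rest. The log2 difference exceeded the whole range of the other 6 in 20 of the 49 rows, against 38 of all 319 (11.9%). The 49 rows were picked by the size of this difference, so a higher share among them is in part built in.

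Rows in which miR-19-only stood above the other 7 libraries were led by miR-1197-3p, a miRNA of the imprinted Dlk1-Dio3 locus, a large miRNA cluster on chromosome 12 expressed from the maternal allele. It stood at 215.2 nRPM in wild type, 1910 in miR-19-only, 298.6 in the full deletion, 162.0 in ΔmiR-17,18, 181.3 in ΔmiR-92, 342.3 in ΔmiR-19, 400.8 in ΔmiR-18 and 348.6 in ΔmiR-17. The miR-19-only value was above all others by a wide gap, and the other 7 did not exceed 400.8. The ratio was 8.87 (8.41 to 9.37), a log2 ratio of 3.14 ± 0.70 (SE from the limma fit) with an adjusted p of 0.554. Among the tools it passed only with DESeq2 (adjusted p = 0.00503). Its partner arm miR-1197-5p stood at 11.4 and 9.77 nRPM, so the hairpin's low arm was not higher.

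The miR-181 family formed a group of high rows. Its guides share a seed and are known for roles in lymphocyte, muscle and vascular cells.
miR-181a-5p: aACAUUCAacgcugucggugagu
miR-181b-5p: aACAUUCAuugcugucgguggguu
miR-181c-5p: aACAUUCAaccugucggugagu
miR-181d-5p: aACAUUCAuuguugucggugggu
miR-181a-5p stood at 4658 nRPM in wild type, 12697 in miR-19-only, 7095 in the full deletion, 4604 in ΔmiR-17,18, 3401 in ΔmiR-92, 3092 in ΔmiR-19, 6494 in ΔmiR-18 and 7263 in ΔmiR-17. miR-181c-5p stood at 1188, 4153, 1822, 1166, 782.9, 461.0, 1546 and 2273 nRPM in the same order. On both scales each was highest in miR-19-only, in nRPM at 2.73 (2.69 to 2.76) and 3.50 (3.41 to 3.58) times wild type, and the next highest library, ΔmiR-17, stood at 7263 and 2273 nRPM. The higher row of miR-181b-5p stood at 3125 and 5059 nRPM (others 2810 to 4626) and miR-181d-5p at 1810 and 2479 (others 1517 to 2390). Each was again highest in miR-19-only, by a smaller gap.

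Of the 7 miR-181 rows compared, 3 were 2-fold higher (against 7.52% of all rows) and 0 were 2-fold lower. All 7 were above wild type, as were 166 of all 319 rows. In nRPM 5 were highest in miR-19-only, against 10.7% of all rows. The median log2 ratio of the 7 miR-181 rows was 0.80, against 0.02 over all rows. The summed family stood at 13937 nRPM in wild type and 29115 in miR-19-only, with the other 6 genotypes at 11068 to 20142. The pair of rows of miR-181b-5p share reads and were both counted. Passenger arms did not all follow: miR-181a-1-3p (190.3 and 429.1 nRPM) and miR-181c-3p (189.7 and 330.0 nRPM) were higher, while the scarce miR-181b-1-3p (71.1 and 22.1 nRPM) was lower.

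miR-199a-5p, processed in part from the Dnm3os transcript of embryonic mesenchyme, stood at 2277 nRPM in wild type, 6517 in miR-19-only, 939.0 in the full deletion, 925.6 in ΔmiR-17,18, 626.7 in ΔmiR-92, 761.2 in ΔmiR-19, 2032 in ΔmiR-18 and 2015 in ΔmiR-17. The ratio was 2.86 (2.81 to 2.91), and in nRPM wild type too was above the other 6. Scaled by total miRNA reads, wild type lay inside their range (2056 RPM, others 667.1 to 2102), with miR-199a-5p still highest in miR-19-only. Its guide partner miR-199a-3p stood at 6743 and 9120 nRPM, inside the range of the others. miR-214-3p, encoded in the same transcript, stood at 63.7 and 181.9 nRPM, with ΔmiR-17,18 at 183.4 and the other 5 at 80.6 to 105.8. Its partner miR-214-5p, at 75.8 and 234.1 nRPM, was highest in miR-19-only (others 31.8 to 82.8). In nRPM miR-214-3p stood just below ΔmiR-17,18 in miR-19-only. By total miRNA reads miR-214-3p was also highest in miR-19-only (212.8 RPM, others 85.8 to 172.9).

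Gaps of smaller size were seen for miR-673-5p (935.8 and 1348 nRPM, others 669.1 to 913.8) and miR-665-3p (2758 and 4184, others 2610 to 3348), both of the Dlk1-Dio3 locus. miR-196b-5p of the Hoxa cluster stood at 556.0 and 935.5 nRPM (others 183.0 to 756.8). The remaining rows of the 10 largest gaps above were miR-362-5p, miR-30d-3p and miR-331-3p, at log2 ratios between 0.57 and 0.68.

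In several of the 15 highest ratios the wild-type library was the one apart. miR-302c-3p, of the cluster known from pluripotent cells, stood at 55.8 nRPM in wild type, 211.6 in miR-19-only, 388.0 in the full deletion, 328.8 in ΔmiR-17,18, 259.0 in ΔmiR-92, 287.0 in ΔmiR-19, 184.9 in ΔmiR-18 and 202.6 in ΔmiR-17. All 7 mutants lay above wild type. The same held for miR-675-5p, encoded in the H19 transcript (37.6 and 119.8 nRPM, others 73.2 to 131.8), and for miR-7a-5p (867.7 and 2029 nRPM, others 1523 to 5013). miR-122-5p, the miRNA that dominates liver, stood at 69.4 and 271.4 nRPM (others 71.0 to 261.9), with wild type the lowest and miR-19-only the highest of the 8. miR-539-3p, at 31.3 and 148.7 nRPM, lay inside the range of the others (25.1 to 255.2) in both libraries.

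**Figure D3:**
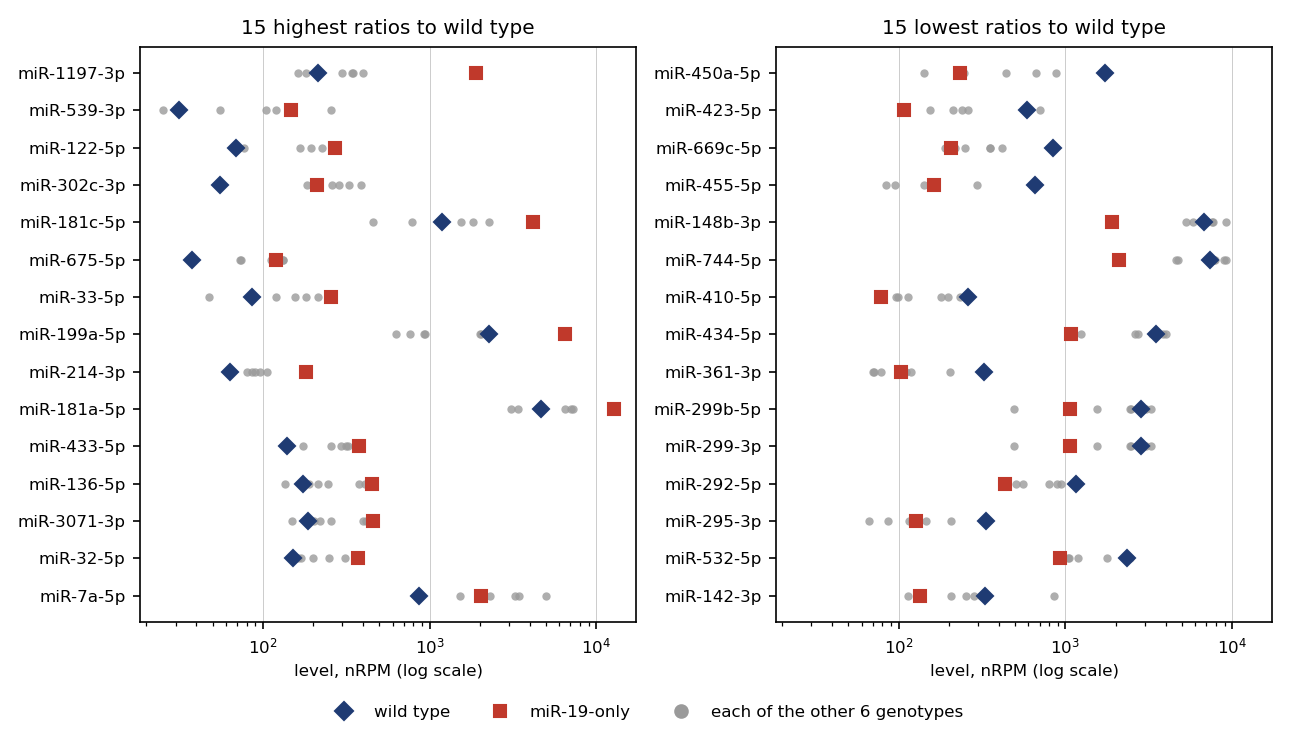
Level (horizontal log axis, nRPM) of the 15 rows with the highest and the 15 with the lowest ratio of miR-19-only to wild type, in wild type (blue diamond), miR-19-only (red square) and each of the other 6 genotypes (grey circles). miR-1197-3p, miR-181a-5p, miR-148b-3p and miR-744-5p have miR-19-only apart from the rest, while miR-302c-3p, miR-450a-5p and miR-669c-5p have wild type apart.

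Rows in which miR-19-only stood below the other 7 libraries included the following, shown because their own arm was low while the partner was not.
miR-148b-3p: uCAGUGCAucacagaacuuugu
miR-744-5p: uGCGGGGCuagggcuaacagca
miR-423-5p: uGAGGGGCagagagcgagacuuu
miR-148b-3p, a member of the miR-148/miR-152 family known to target DNA methyltransferases, stood at 6769 nRPM in wild type, 1899 in miR-19-only, 9165 in the full deletion, 7520 in ΔmiR-17,18, 7113 in ΔmiR-92, 7624 in ΔmiR-19, 5282 in ΔmiR-18 and 5834 in ΔmiR-17. The other 7 libraries lay within 5282 to 9165 nRPM and miR-19-only far below them. The ratio was 0.280 (0.276 to 0.285), a log2 ratio of -1.83 ± 0.45 (SE from the limma fit) with an adjusted p of 0.554. Its partner arm miR-148b-5p stood at 12.4 and 13.0 nRPM.

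miR-744-5p stood at 7386 nRPM in wild type, 2099 in miR-19-only, 7898 in the full deletion, 8988 in ΔmiR-17,18, 9181 in ΔmiR-92, 7780 in ΔmiR-19, 4619 in ΔmiR-18 and 4751 in ΔmiR-17. It was lowest in miR-19-only, at 0.284 of wild type (0.280 to 0.288), and no other library was under 4619 nRPM. miR-423-5p stood at 590.5 nRPM in wild type and 107.2 in miR-19-only, against 154.2 to 702.0 in the other 6. It was again the lowest of the 8, at 0.181 of wild type, but ΔmiR-18 at 154.2 was near it. Its partner miR-423-3p, the more abundant arm, stood at 3711 and 3663 nRPM.

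miR-434-5p (3495 and 1085 nRPM, others 1248 to 4020) and miR-410-5p (258.9 and 78.0 nRPM, others 96.9 to 232.0), both of the Dlk1-Dio3 locus, were also lowest in miR-19-only. miR-708-5p stood at 830.1 and 349.4 nRPM (others 516.9 to 1200), miR-532-5p at 2327 and 931.2 (others 1043 to 2428) and miR-652-3p at 1896 and 1203 (others 1536 to 2089). Each of these had the miR-19-only library below all 7 others in nRPM. By total miRNA reads miR-434-5p and miR-532-5p were no longer the lowest of the 8, while miR-148b-3p, miR-744-5p, miR-423-5p, miR-410-5p, miR-708-5p and miR-652-3p still were.

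Wild type was the library apart for other low ratios. miR-450a-5p, from the X-linked miR-322/miR-503 cluster, had the lowest ratio of all: 1724 nRPM in wild type, 232.5 in miR-19-only, 247.2 in the full deletion, 232.7 in ΔmiR-17,18, 141.0 in ΔmiR-92, 668.4 in ΔmiR-19, 440.3 in ΔmiR-18 and 877.5 in ΔmiR-17. All 7 mutants were lower than wild type, and miR-19-only was in their midst. miR-669c-5p of the Sfmbt2 miRNA cluster (840.3 and 206.2 nRPM, others 189.4 to 419.1) and miR-361-3p (326.6 and 103.8, others 70.4 to 202.5) also had wild type highest and miR-19-only inside that range. So did miR-295-3p of the miR-290~miR-295 cluster of early embryonic cells (332.5 and 126.8, others 66.6 to 206.8). For miR-455-5p wild type was highest in nRPM by a small gap only (653.9 and 162.9, others 84.2 to 633.5). By total miRNA reads wild type was not the highest for miR-455-5p (590.5 RPM, others 79.3 to 668.3). miR-299-3p and its antisense entry miR-299b-5p carry near-identical reads and count as 1 finding (2848 and 1060 nRPM, others 491.1 to 3256), with both libraries inside the range of the others.

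Both arms of a hairpin come from the same precursor, and the partner arm was measured for 32 of the 49 rows past 2-fold, at an average of 10 nRPM or more. Partners were matched by name. miR-181a-5p, miR-450a-5p and miR-199a-5p are each encoded at 2 loci, and other rows may be too. For such rows the arm and its partner need not come from the same precursor. These rows were picked by the size of their own ratio, so a smaller ratio in the partner is in part set by that choice. Counts over arm pairs picked without regard to their ratio are not given here. The partner differed by 2-fold in the same direction in 4 of the 32, in the same direction but under 2-fold in 16, and in the opposite direction in 12. These 4 entries are miR-181a-5p and miR-181a-1-3p, which are partners of each other, miR-214-3p and miR-106a-5p. For miR-148b, miR-744, miR-423, miR-450a and miR-1197 the partner's log2 ratio lay between -0.21 and 0.20, although the named arm differed by more than 3-fold. miR-7a-5p was 2-fold higher while miR-7a-1-3p went from 32.9 to 14.6 nRPM, the only pair with opposite 2-fold differences. In miR-335, a pair outside the naming rule and picked after its values were seen, the 3p arm stood at 16980 and 7661 nRPM and the 5p arm at 3506 and 6286. For both arms of miR-335 wild type lay outside the range of the other 6.

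**Figure D4:**
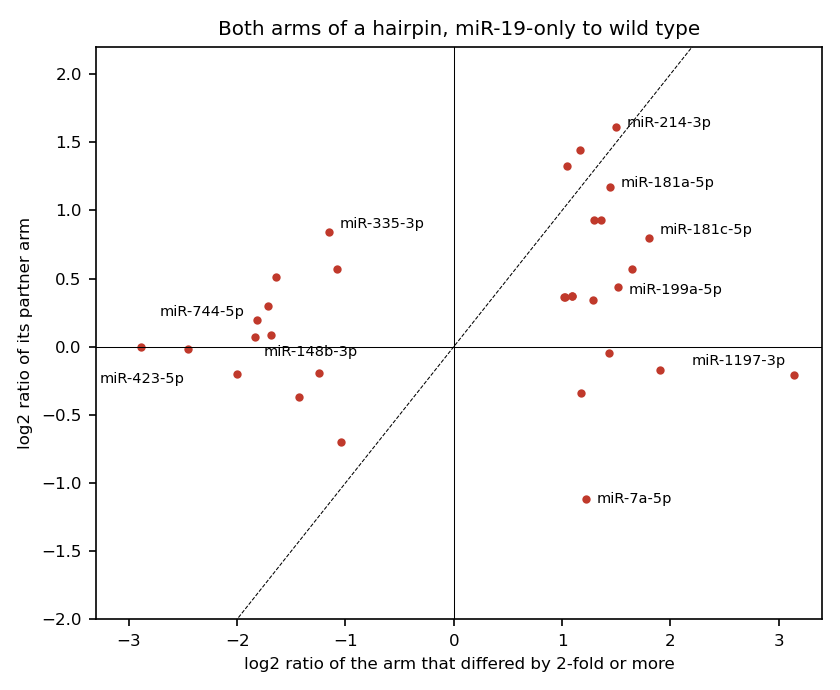
Log2 ratio of miR-19-only to wild type for the arm that differed by 2-fold or more (horizontal) and for its partner arm (vertical), 32 rows with a partner averaging 10 nRPM or more; the dashed line is equality. Most points lie nearer to 0 on the vertical axis than on the horizontal one, which is in part set by picking rows on their horizontal value. miR-181a and miR-214 lie near the line.

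Groups of miRNAs with a known tissue or locus were then read by their counts and medians. Over all rows the median log2 ratio was 0.02, with 7.52% 2-fold higher and 7.84% 2-fold lower. Of all 319 rows, 166 were above wild type. In nRPM miR-19-only was the highest of the 8 libraries in 10.7% and the lowest in 11.3%. In bulk RNA fewer cells of a type and less RNA per cell cannot be told apart. The endothelial miRNA miR-126 was low on both arms. miR-126-3p, which supports vessel integrity, stood at 8047 nRPM in wild type, 6053 in miR-19-only, 12180 in the full deletion, 14901 in ΔmiR-17,18, 8392 in ΔmiR-92, 9260 in ΔmiR-19, 7349 in ΔmiR-18 and 9812 in ΔmiR-17. miR-126-5p stood at 2673, 1318, 4029, 2657, 4763, 2229, 2514 and 3516 nRPM in the same order. In nRPM both were lowest in miR-19-only. By total miRNA reads miR-126-5p was still the lowest of the 8, but miR-126-3p stood at 0.974 of wild type and ΔmiR-18 was below it. The log2 ratio of miR-126-5p was -1.02, and -0.65 when scaled by total miRNA reads, where the median of both arms moved from -0.72 to -0.34.

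Blood miRNAs summed to 3505 nRPM in wild type and 2122 in miR-19-only, against 2715 to 4459 in the other 6 genotypes. Of 7 rows compared 1 was 2-fold lower and 0 were 2-fold higher. In nRPM 3 were lowest in miR-19-only, against 11.3% of all rows, but by total miRNA reads none of these was. The median log2 ratio of the blood rows was -0.31, and 0.06 when scaled by total miRNA reads. miR-486-5p, an erythroid miRNA, stood at 1187 and 608.5 nRPM (others 705.1 to 1300), and its reads recur under miR-486-3p, so that the blood sum and counts hold these reads more than once, and under the miR-3107 entries. miR-142-3p, a miRNA of blood cells, stood at 328.1 and 134.2 nRPM (others 114.4 to 848.6), and miR-144-3p, another erythroid miRNA, at 85.5 and 134.3. The blood rows thus did not share a direction.

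Mesenchymal miRNAs had 3 of 9 rows 2-fold higher and 0 lower, with a median log2 ratio of 0.44. Their sum was 38560 nRPM in wild type and 46999 in miR-19-only, above the other 6 (31039 to 42593). miR-199a-3p and miR-199b-3p hold near-identical reads, so the counts and the sum hold these reads more than once. miR-143-3p, of smooth muscle, stood at 14371 and 14890 nRPM. miRNAs of the Hox clusters summed to 67054 and 57549 nRPM (others 62943 to 79672), the lowest sum of the 8, but by total miRNA reads the ratio turned to 1.11, and 0 of 8 rows differed by 2-fold. miR-10a-5p stood at 28278 and 21134 nRPM and miR-10b-5p at 35292 and 32179, each lowest in miR-19-only in nRPM, while by total miRNA reads their ratios were 0.968 and 1.18. The median log2 ratio of the Hox rows was 0.25, opposite in direction to the sum, with 5 of the 8 rows above wild type.

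The Dlk1-Dio3 locus, with 68 rows compared, had 5 rows 2-fold higher and 5 lower and a median log2 ratio of 0.04. In nRPM its most abundant guides miR-127-3p (22522 and 20786 nRPM) and miR-541-5p (20190 and 21388 nRPM) lay within the range of the others in both libraries. Scaled by total miRNA reads, miR-541-5p in miR-19-only was just above that range (25013 RPM, others 16350 to 24954). The single rows named above therefore sat in a locus without a shared direction. Of the early embryonic groups, miR-290~miR-295 had 2 of 8 rows 2-fold lower and a median of -0.50, and miR-302/miR-367 had 1 of 7 higher and a median of -0.16. In nRPM 2 of the 8 miR-290~miR-295 rows were above wild type, miR-293-3p among them (log2 ratio of 0.80). When scaled by total miRNA reads, the miR-290~miR-295 median became -0.13 and the miR-302/miR-367 median 0.21. Let-7 rows, known for rising with differentiation, had 1 of 6 higher and a median of -0.01, which was 0.37 on that scale.

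Neural (0 of 9 rows past 2-fold, median 0.26), miR-30 (0 of 10, median 0.09) and miR-15/miR-16 and miR-103/miR-107 rows (0 of 7, median 0.36) stayed under 2-fold. miR-9-5p, a miRNA of neural progenitors, stood at 1806 and 2656 nRPM (others 620.1 to 3686). Among epithelial miRNAs of the miR-200 family 1 of 5 rows was higher, at a median of -0.38, which was -0.01 by total miRNA reads. miR-200c-3p stood at 2190 and 1542 nRPM (others 1770 to 3299), a ratio of 0.912 by total miRNA reads.

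**Figure D5:**
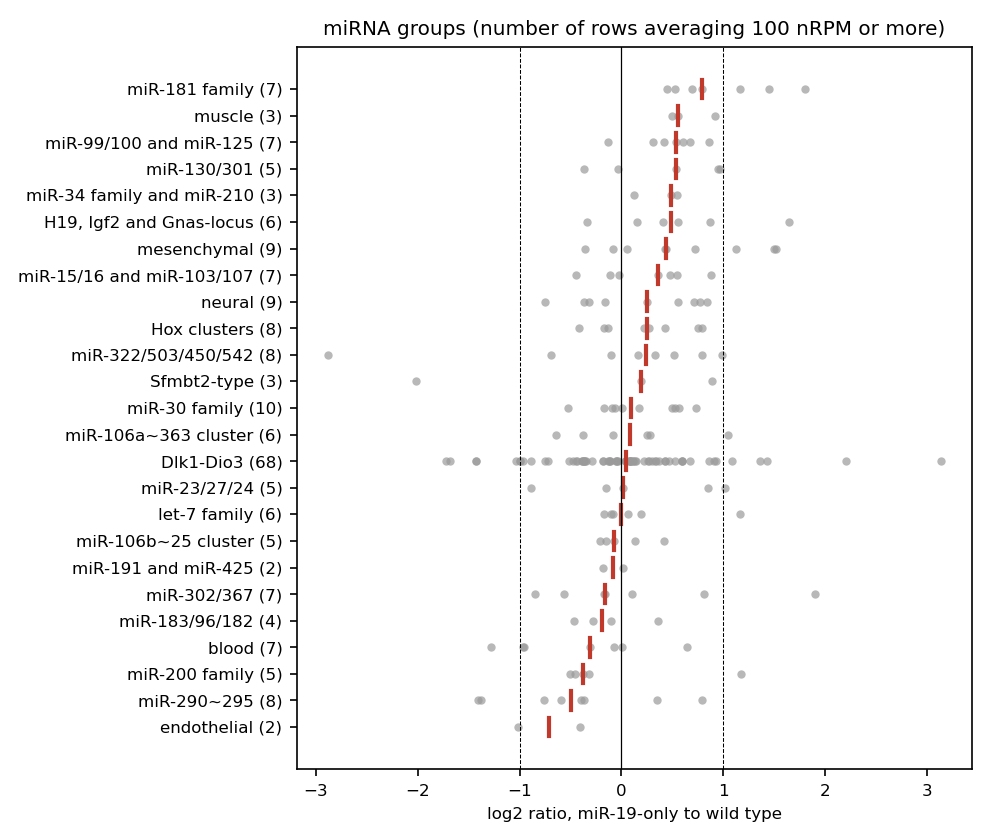
Log2 ratio of miR-19-only to wild type (horizontal) for each row averaging 100 nRPM or more in 25 miRNA groups, with the number of rows in brackets; grey circles are rows, red bars are medians, and dashed lines mark 2-fold. The miR-181 family has all 7 rows above 0, where 166 of all 319 rows lie, and the highest median. On the scale of total miRNA reads all medians lie higher. Those of let-7, miR-106b~miR-25, miR-191/miR-425, miR-302/miR-367, miR-183/miR-96/miR-182 and blood change sign.

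Heart and muscle miRNAs were looked at as a sign of how the dissection left the tissue, since the heart had been removed. Summed over the guides of miR-1a, miR-133a, miR-133b, miR-206, miR-208a, miR-208b and miR-499, they stood at 3067 nRPM in wild type and 4725 in miR-19-only, against 2227 to 6128 in the other 6. miR-1a-3p, the main muscle miRNA, stood at 2485 and 3662 nRPM (others 1531 to 5005). Of the markers of cardiac muscle, miR-208a-3p stood at 6.27 nRPM in wild type (40 reads) and 158.9 in miR-19-only, against 24.7 to 175.5 in the others. miR-499-5p stood at 10.3 and 43.9 nRPM. Wild type was the lowest of the 8 for both, and none of the 7 guides was at 0 in either library. Whether differences in dissection have a part in the results above was not tested.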

How the data were processed

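Per the submitters' processing notes, the build was mm9 and the tools were STAR 2.2.0, featureCounts (Subread 1.4.2) and SAMtools 0.1.19. Their parameters, and how multi-mapping reads were handled, are not given in the sources used here. Each deposited signal is a normalised value of 1 mature miRNA in 1 library. The authors had divided reads by 1 factor per library, as the values show: 100% came out as whole reads within 0.001 reads. Signals were multiplied by 0.116, so that the 8 genotype libraries average the same total as RPM values (nRPM). The table held 1046 rows for 977 accessions, 57 of them listed more than once. Rows of 1 accession within 10% were merged to the higher, and 8 accessions stayed as separate rows, miR-92a-3p among them. Its lower row entered only the miR-92 seed total.

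Differences were read by size (2-fold, average of 100 nRPM or more). limma 3.58.1 (trend) compared the lone libraries with the spread of the other 6 genotypes, on the assumption that they vary alike, in rows averaging 10 nRPM or more. edgeR 4.0.16 and DESeq2 1.42.0 were run on the recovered reads, and the limma script was tested on simulated data. Other scalings, pseudocounts, level minimums and left-out libraries were tried. R 4.3.3 and Python with scipy were used. Named rows were all 3 clusters' arms, the 15 rows with the highest and the 15 with the lowest ratio with at least 20 reads in either library, the 10 largest gaps per direction, any limma calls and each list's 2 most abundant members; partner arms, heart markers and miR-335 were added. The members and lists were chosen with earlier results of these data known. A check of base composition was void, since only 253 of 319 rows (79.3%) matched a RefSeq mature sequence. The library of undetermined reads was not used.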

Additional observations from a re-analysis of the deposited data

How the results depend on the processing

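No paired analysis was possible because each genotype had 1 library. Scaling by total miRNA reads gave 56 rows 2-fold higher and 13 lower, and put 17 with both libraries inside the range of the others. The level minimum sets the number of rows tested. An average of 10 nRPM or more gave 61 higher, 48 lower and 109 in either direction; miR-19-only alone was outside the range in 37, wild type alone in 33, both in 15 and neither in 24, and 50 exceeded the range. An average of 1000 nRPM or more gave 8, 10 and 18, with 8, 6, 1 and 3 by place and 4 past the range. Leaving out each of the other 6 genotypes in turn gave 13 to 18 rows with miR-19-only alone outside, 12 to 17 with wild type alone, 7 to 10 with both, 7 to 11 with neither (7 without the full deletion, against 11) and 22 to 26 past the range. limma called 0 rows in each of these fits, in the additive fit and under other scalings, filters and pseudocounts, with 25 to 73 rows at an unadjusted p under 0.05. DESeq2 called 3 rows; the cause was not tested.

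The ratio of the miR-19 arms was 2.49 by total miRNA reads, 1.98 by reads outside the cluster, 1.91 by TMM factors and 1.93 by median-ratio factors of the 8 libraries. On the same 4 scales miR-106b~miR-25 stood at 1.34, 1.07, 1.03 and 1.04, and on the first 3 miR-106a~miR-363 stood at 1.38, 1.10 and 1.06. Of 113 named rows, 16 under 2-fold changed direction by total miRNA reads; 4 dropped under 2-fold (miR-532-5p, miR-142-3p, miR-126-5p and miR-708-5p) and 7 passed it. Reads limit precision little at these levels, while the number of libraries, 1 per genotype, limits every comparison.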

Other observations

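Below the average of 100 nRPM used for the counts, DESeq2's Wald test named 2 more rows, picked here after their values were seen. miR-208a-3p, a miRNA encoded in a cardiac myosin gene, was higher in miR-19-only (158.9 nRPM against 6.27, a ratio of 25.4, DESeq2 adjusted p = 0.0136). ΔmiR-17,18 stood at 175.5 nRPM and the other 5 genotypes at 24.7 to 51.7. In nRPM wild type was thus the lowest of the 8 and miR-19-only was not the highest, but by total miRNA reads miR-19-only was. miR-5097 was lower in miR-19-only (15.7 nRPM against 97.0, DESeq2 adjusted p = 0.0338), with the other 6 genotypes at 25.1 to 69.8, so that the 2 libraries were the lowest and the highest of the 8. Neither passed with limma or edgeR. miR-133b-3p, a muscle miRNA, stood at 5.64 nRPM in wild type and 28.7 in miR-19-only, below and above all other genotypes (8.10 to 18.4).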
